A study of Camelus dromedarius with 10 samples.

Results

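PTPRN and PTPRN2 encode the receptor-type protein tyrosine phosphatases of dense-core granules, the organelles in which neuroendocrine cells store peptides before release. The genes were to be found as the rows of the count table whose Ensembl ID the study's supplementary tables pair with either name. PTPRN was found as 1 of the 22444 IDs, ENSCDRG00005000951. No ID was paired with PTPRN2 in the tables used, 1 of which was a shortened copy ordered by p, so 1 of the 2 members is described and PTPRN2 and the ratio of PTPRN to it were not analysed here. The data are RNA-seq counts from the rostral supraoptic nucleus (SON) of male dromedary camels aged 4 to 5 years, 5 controls that drank freely (CON2, CON3, CON4, CON5 and CON13) and 5 camels kept without water for 20 days (water deprivation, WD; WD6, WD7, WD8, WD9 and WD15). All camels were ranch-housed and fed hay. Each library was made from tissue punches pooled over many consecutive sections of 1 side, so it holds neurones, glia and vessels together.

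PTPRN, also called IA-2 or ICA512, spans the granule membrane with 1 end inside the granule and 1 in the cytosol. Its phosphatase domain lacks catalytic activity, and the protein is best known as an autoantigen of type 1 diabetes and for its part in the number and cargo of secretory granules. When granules fuse with the plasma membrane, the protease calpain can cut off the cytosolic tail, which binds STAT5 and raises transcription of granule genes in insulin-secreting cells. In the SON, magnocellular neurones (MCNs) pack arginine vasopressin and oxytocin into dense-core granules and carry them along their axons to the posterior pituitary.

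PTPRN was also measured by qRT-PCR in the study, with values not used here, and the primers are the only designed sequences for a member. They are printed, 5′ to 3′ and 20 bases each, to show which PTPRN sequence was targeted in the camel; only the gene name ties them to the count row.
PTPRN forward: agcccttctcggagtgacta
PTPRN reverse: tatgtaggctggcatccgtg

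Depth differed between the libraries. Total counts lay between 1665098 and 8126641 per library, and 5 gene IDs that each took over 1% of a library held 27.7% to 76.1% of them. Outside these 5 IDs CON13 kept 397495 counts and WD6 kept 1106575, whereas the other 8 libraries kept 2078393 to 5872137. Levels are therefore given as CPM after TMM normalization, that is, counts scaled to a common library size with a correction for such dominant genes.

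PTPRN rose in WD, with a mean 2.56 times that of control and no overlap between the groups. Its raw counts were 1822 in CON2, 2443 in CON3, 3308 in CON4, 3539 in CON5 and 486 in CON13, against 4339 in WD6, 11114 in WD7, 4651 in WD8, 13439 in WD9 and 4402 in WD15. On the CPM scale the control levels were 389 in CON2, 578 in CON3, 380 in CON4, 518 in CON5 and 581 in CON13. The WD levels were 2059 in WD6, 1417 in WD7, 715 in WD8, 1161 in WD9 and 917 in WD15. Every WD library lay above every control library, and the lowest, WD8, stood at 1.23 times the highest control, CON13. The group levels were 489 ± 99.0 CPM in control and 1254 ± 522 CPM in WD (SD, n = 5 each), which an exact two-sided permutation test over all assignments of libraries to the groups separated at p = 0.00794, the smallest value it can give.

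**Figure D1:**
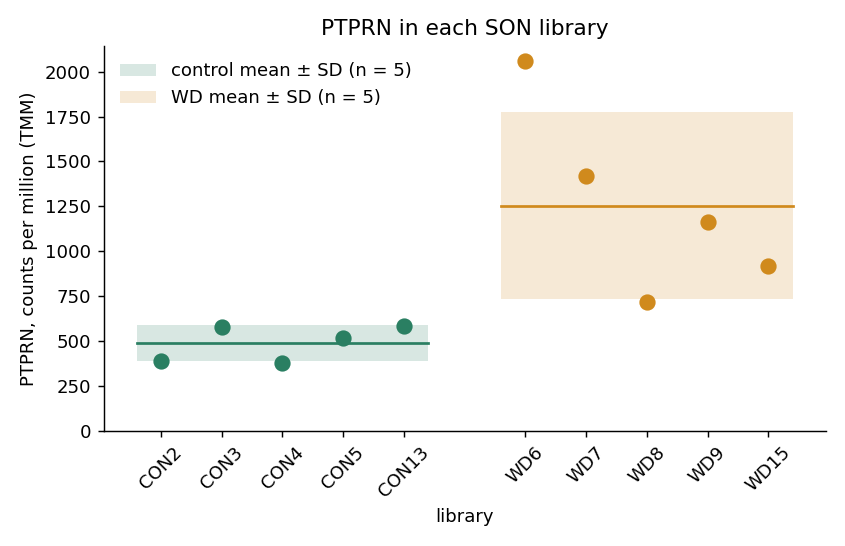
PTPRN level on the y axis (CPM after TMM normalization, linear from 0) in each library on the x axis; points are single libraries, lines the group means and bands ± SD (n = 5). The 5 control libraries lie between 380 and 581 CPM and the 5 WD libraries between 715 and 2059 CPM, with WD6 highest.

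The WD camels also differed more among themselves. The coefficient of variation of the PTPRN level was 20.2% in control and 41.6% in WD, a difference in spread that was not tested. WD6 contributed most to it, and without it the WD level was 1053 ± 304 CPM (SD, n = 4). In both groups the library with the fewest counts outside the dominant IDs, CON13 or WD6, had the highest PTPRN level, and the part of depth in this was not tested.

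The groups were also separate without TMM scaling. PTPRN took from 0.0292% of all counts in CON13 (95% Wilson interval 0.0267% to 0.0319%) to 0.0694% in CON3 (0.0667% to 0.0722%) among controls. Among WD libraries its share ran from 0.0930% in WD8 (0.0904% to 0.0957%) to 0.185% in WD7 (0.181% to 0.188%). These intervals cover counting error only and are narrow beside the differences between camels. Relative to the counts outside the dominant IDs, the shares were 0.0736% to 0.122% in control and 0.148% to 0.392% in WD, again without overlap.

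In edgeR's quasi-likelihood fit over the 14432 genes tested, PTPRN had a log2 fold change of 1.36 (SE 0.254) and a Benjamini-Hochberg adjusted p of 0.0179. The fit called 39 genes higher in WD, 0.27% of those tested, and 33 lower, 0.229%, at an adjusted p of at most 0.05. All WD libraries lay above all controls for 1.34% of the tested genes, PTPRN among them. By the size of its log2 fold change PTPRN was the 21st of the 39 genes called higher. Its biological coefficient of variation in the fit was 0.280, close to the 0.285 shared by all genes.

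The call for PTPRN was lost without any 1 of 4 control libraries. Left out singly, CON2, CON3, CON4 and CON5 gave adjusted p of 0.0632, 0.0534, 0.0511 and 0.0577, while the call held without CON13 or any single WD library. The log2 fold change stayed between 1.11 without WD6 and 1.48 without WD8. With CON13 and WD6 both left out, the log2 fold change was 1.15 and the adjusted p 0.0404. DESeq2's Wald test gave PTPRN an adjusted p of 2.40e-05, and the edgeR fit gave 0.00202 with depth group and 0.00705 with RNA integrity as a covariate. Scaling to the library total alone gave a log2 fold change of 1.43 with an adjusted p of 0.450, in a fit that called 10 genes.

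**Figure D2:**
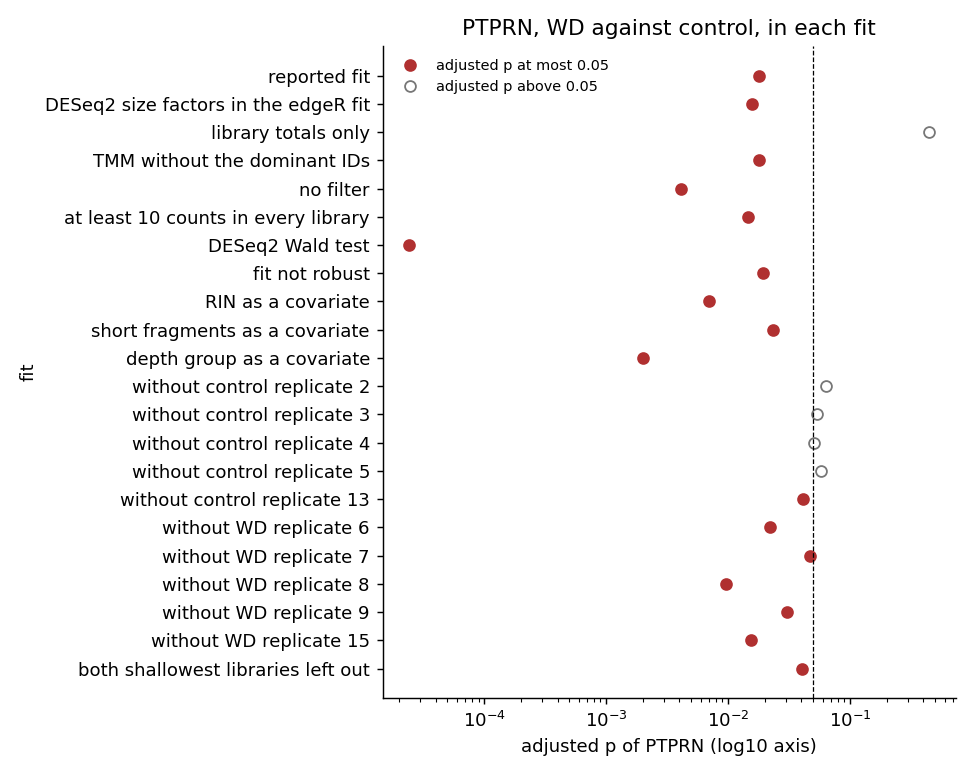
Adjusted p of PTPRN on the x axis (log10 scale) in the reported fit and each alternative fit on the y axis; the dashed line is the threshold of 0.05. The value lies above 0.05 without control replicate 2, 3, 4 or 5 and, at 0.450, with scaling to library totals only.

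Receptor tyrosine phosphatases are transmembrane enzymes that remove phosphate from tyrosines, with roles in cell adhesion, axon guidance and immune signalling. The study's tables pair 18 members of this class other than PTPRN with an ID. Of these, 17 passed the filter on low counts, and PTPRH, with 25 counts in all libraries together, did not. None of the 17 was called by edgeR, against 0.499% of all tested genes called in either direction, while 4 had an unadjusted p under 0.05, against 9.31% of all tested genes, and DESeq2 called 1, against 1.27% of its genes. In the edgeR fit 10 had a log2 fold change above 0 and 7 below. Their median log2 fold change was 0.01, beside 0.02 over all tested genes. The summed level of the 17 genes was 1263 to 1529 CPM in control and 1251 to 1510 CPM in WD, so the ranges largely coincided.

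The nearest in size to PTPRN was PTPRC, the leukocyte antigen CD45, with a log2 fold change of 0.90 (SE 0.274, adjusted p = 0.229). Its levels were 16.4 to 35.6 CPM in control and 30.1 to 75.4 CPM in WD, and the groups overlapped. Without WD15, the library with the highest level, its log2 fold change was 0.59 (adjusted p = 0.639). PTPRC is also 1 of the microglial markers used below.

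Among the 7 members below 0, PTPRT and PTPRR had groups that did not overlap. PTPRT, a cell adhesion phosphatase of the brain, had levels of 116 to 154 CPM in control and 66.3 to 108 CPM in WD, and PTPRR, which acts on MAP kinases, had levels of 15.5 to 18.7 CPM and 7.71 to 15.4 CPM. For both, every WD library lay below every control library, which was so for 1.27% of all tested genes. The log2 fold changes were -0.66 (adjusted p = 0.153) for PTPRT and -0.61 (adjusted p = 0.367) for PTPRR, so neither passed the edgeR test. DESeq2's Wald test gave PTPRT an adjusted p of 0.0131, with 1.27% of its 16447 genes called.

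Most of the other members lay closer to 0. PTPRF, which guides axons and synapses as LAR, had a log2 fold change of -0.47, and its relatives PTPRS and PTPRD had -0.26 and 0.01. PTPRZ1, abundant on astrocytes and glial precursors, had 0.20 (0.096 without CON13) and the endothelial PTPRB had 0.40. The lowest value, -0.89 for PTPRQ, rested on 239 counts over all libraries, and 1 control library, CON13, held 20.3 CPM where the other 4 held 2.52 to 7.17 CPM. Without CON13 the value was -0.36 (adjusted p = 0.907).

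**Figure D3:**
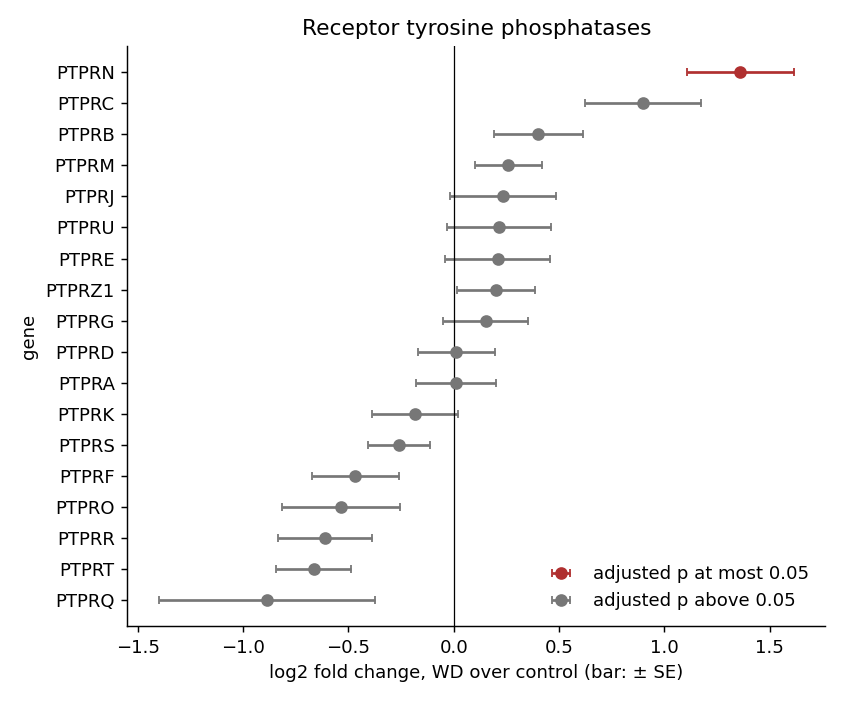
Log2 fold change of WD over control on the x axis, with bars of ± SE, for PTPRN and the 17 other receptor tyrosine phosphatases tested, on the y axis in order of their fold change. PTPRN at 1.36 is the only 1 of the 18 with an adjusted p of at most 0.05 in the edgeR fit.

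Granule genes were described next, from a list of 19 made up of cargo, processing enzymes, acidifying pump subunits and release factors. All 19 passed the filter on low counts, and 6 were called higher and 2 lower in WD, against 0.27% and 0.229% of all tested genes. DESeq2 called 11 of the 19, against 1.27% of all its genes. Their median log2 fold change in the edgeR fit was 0.61. Of these genes 10 carry a name only through a copy of the study's table that is ordered by p and cut off, which favours genes with small p. Among the 9 named independently of that copy, 3 were called higher and 1 lower, and the median log2 fold change was 0.12. The whole list, these 9 included, was chosen with earlier results of these data known. Its counts are therefore a description and no independent support.

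Among the cargo, VGF, the precursor of several secreted peptides, had the largest rise of the list. It went from 26.3 to 65.8 CPM in control to 362 to 1427 CPM in WD, a log2 fold change of 3.99 (adjusted p = 3.85e-05). PDYN, the dynorphin precursor that MCNs make together with vasopressin, rose by 1.93 on the log2 scale, and the secretogranins SCG2 and SCG3 rose by 1.48 and 1.34. The chromogranins, acidic proteins that condense in the granule core, gave smaller values: CHGA 0.12 (SE 0.201, adjusted p = 0.920) and CHGB 0.10 (SE 0.197, adjusted p = 0.935). Without CON13 and WD6 these last values turned to -0.14 and -0.06.

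The processing enzymes differed from each other. PCSK1, a convertase that cuts prohormones, rose by 2.02 on the log2 scale, and PAM, which amidates peptides such as vasopressin and oxytocin, rose by 1.63. The other neuroendocrine convertase, PCSK2, fell by 1.53 on the log2 scale, from 25.1 to 84.6 CPM in control to 9.79 to 23.4 CPM in WD. Carboxypeptidase E, encoded by CPE, had a log2 fold change of 0.34 (adjusted p = 0.694), and PCSK1N, whose product inhibits PCSK1, had -0.10 (adjusted p = 0.949). VGF, PCSK1, PAM and PDYN were called in all 10 fits that left out 1 library. SCG2 was called in 6 of them, not without CON2, CON3, WD7 or WD9 (adjusted p up to 0.110). SCG3 was called in 3, not without CON2, CON3, CON5, CON13, WD7, WD8 or WD9 (adjusted p up to 0.177). PCSK2 was not called without WD8 (adjusted p = 0.0538).

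Release and acidification genes gave 1 call in the edgeR fit, and DESeq2 also called SYT4 (adjusted p = 0.0351), UNC13A (0.0351) and ATP6V0B (0.00726). SYT9, a synaptotagmin that senses calcium, fell by 1.26 on the log2 scale but was not called without CON5 (adjusted p = 0.0638), and its relatives SYT4 and SYT7 had values of 0.97 (adjusted p = 0.145) and -0.65 (adjusted p = 0.404). Without WD6 SYT7 was called, with a log2 fold change of -0.93 and an adjusted p of 0.0239. UNC13A, which primes granules and vesicles for fusion, had 0.63 (adjusted p = 0.214) with WD levels of 188 to 347 CPM above control levels of 140 to 177 CPM. ATP6V0B, a subunit of the proton pump that acidifies granules, had 0.85 (adjusted p = 0.0757), and was called without CON4 (1.01, adjusted p = 0.0256).

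**Figure D4:**
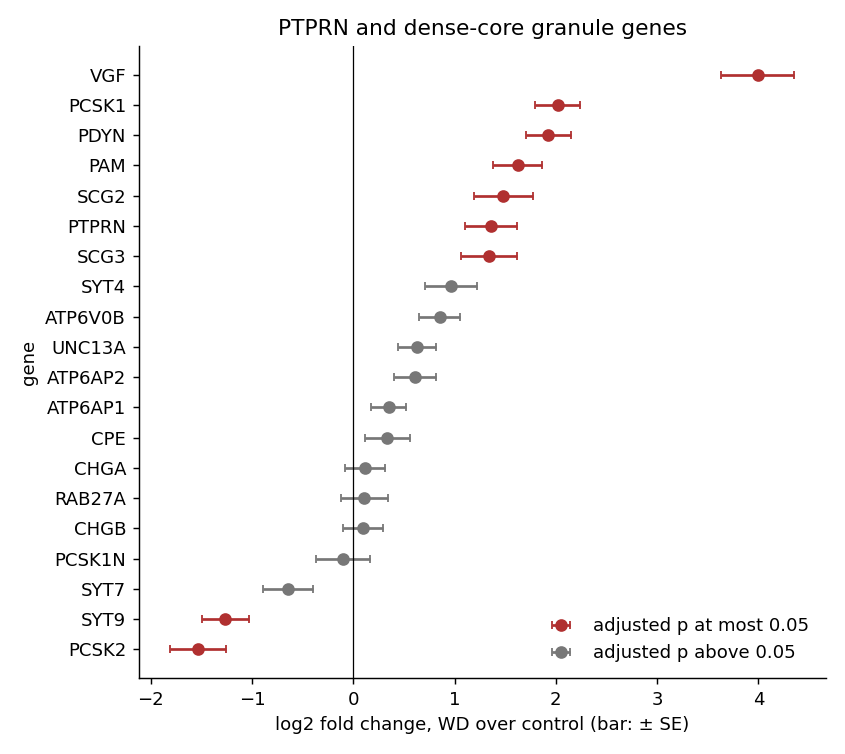
Log2 fold change of WD over control on the x axis, with bars of ± SE, for PTPRN and 19 dense-core granule genes on the y axis in order of their fold change. PTPRN at 1.36 lies between SCG2 at 1.48 and SCG3 at 1.34, and the values run from -1.53 for PCSK2 to 3.99 for VGF.

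The genes through which the PTPRN tail is cut and signals showed no call in the edgeR fit, none by DESeq2 and no unadjusted p under 0.05. Of 7 listed, 5 were paired with an ID and tested: STAT5A (-0.02), STAT5B (-0.01), STAT3 (0.17), CAPN1 (0.06) and CAPN2 (-0.12), all as log2 fold changes. Their adjusted p lay between 0.813 and 0.988. RNA levels do not measure the cleavage or the phosphorylation by which these proteins act.

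Dividing PTPRN counts by those of another gene in the same library removes the library's scaling. The ratios are not corrected for gene length, so their size compares libraries and not genes. As a reference, PTPRN was set against each of 8076 genes with at least 10 counts in every library. The median gene had a mean log2 ratio 1.29 higher in WD, and for 49.2% of the genes every WD ratio lay above every control ratio.

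PTPRN per CHGA was 7.32 in CON2, 9.66 in CON3, 6.27 in CON4, 7.45 in CON5 and 11.6 in CON13. In WD it was 20.6 in WD6, 23.2 in WD7, 11.7 in WD8, 20.9 in WD9 and 20.3 in WD15. The groups did not overlap, although WD8 lay just above CON13. The mean log2 ratio was 1.19 higher in WD, with an exact two-sided permutation p of 0.00794 and an adjusted p of 0.0119 over the 3 ratios tested.

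PTPRN per CHGB was 3.12 in CON2, 3.80 in CON3, 2.60 in CON4, 3.06 in CON5 and 4.12 in CON13. In WD it was 9.79 in WD6, 7.71 in WD7, 5.48 in WD8, 7.09 in WD9 and 9.45 in WD15. Again the groups did not overlap, and the mean log2 ratio was 1.23 higher in WD (exact permutation p = 0.00794, adjusted p = 0.0119). PTPRN thus rose against both chromogranins by about as much as against the median gene, and the ratios single out neither.

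Against CPE the ratio was 1.08 to 2.76 in control and 2.08 to 8.80 in WD, and the groups overlapped. The mean log2 ratio was 0.97 higher in WD, with an exact permutation p of 0.0476, also after adjustment. That p depended on single libraries: without WD6, whose ratio was 8.80, the difference was 0.64 with an exact permutation p of 0.0952. Leaving out any of CON2, CON4, CON5, WD7, WD9 or WD15 also gave p above 0.05. The difference then lay between 0.78 (without CON4) and 1.09 (without WD9), and each such test has fewer assignments than the full one.

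The ratios of PTPRN to the 6 granule genes called higher are described without a test. The mean log2 ratio was lower in WD for each of them, with a difference (WD minus control) of -2.61 for VGF, -0.72 for PCSK1, -0.66 for PDYN, -0.31 for SCG2, -0.28 for PAM and -0.09 for SCG3. The last 3 depended on single libraries. Without CON13 the difference was 0.050 for SCG2, 0.19 for SCG3 and -0.093 for PAM, and SCG3 also turned above 0 without WD8 (0.031) or WD9 (0.098). For VGF, PCSK1 and PDYN it stayed below 0 without any single library. A lower mean ratio was seen for 13 of the 8076 genes, or 0.161%. The 6 genes were chosen for their rise, with log2 fold changes of 1.34 to 3.99 beside 1.36 for PTPRN. A low ratio therefore follows largely from that choice, and the shares over all genes lend it no support. For VGF every WD ratio (0.906 to 2.44) lay below every control ratio (7.59 to 14.4), which held for 1 gene of the 8076 (0.0124%), whereas for the other 5 the groups overlapped. For SCG3, as an example, the ratio was 2.72 to 11.9 in control and 3.08 to 12.1 in WD.

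**Figure D5:**
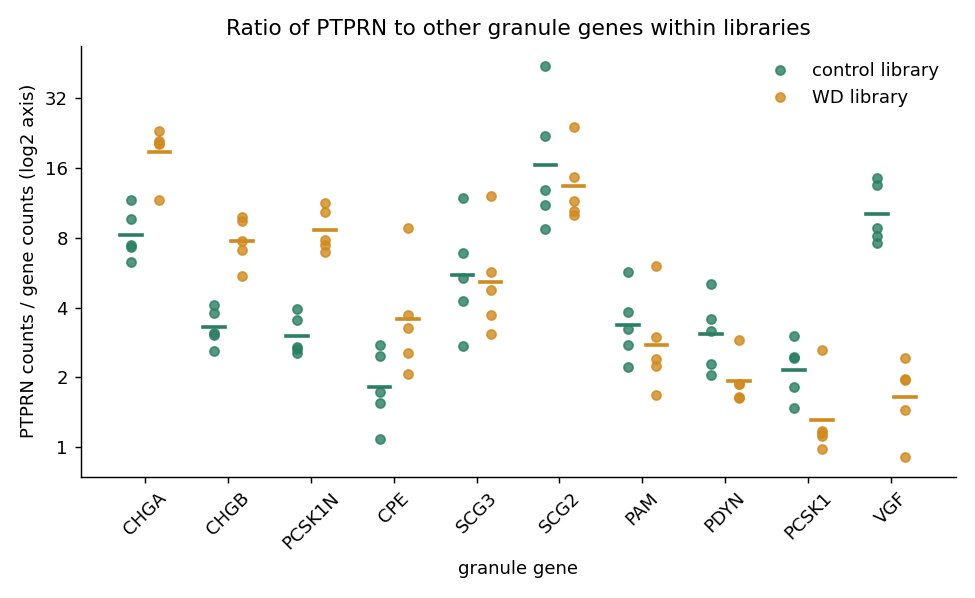
PTPRN counts divided by those of a granule gene in the same library, on a log2 y axis, for 10 granule genes on the x axis; points are single libraries of control and WD and bars the group means of the log2 ratio. The WD points lie above the control points for CHGA, CHGB and PCSK1N and below them for VGF, and overlap with them for the other 6.

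Other partners filled in the range. The mean log2 ratio was higher in WD by 2.75 for PCSK2, 2.52 for SYT9, 1.98 for SYT7 and 1.51 for PCSK1N, each with all WD ratios above all control ratios. For UNC13A it was 0.69 higher, also without overlap, with 2.57 to 3.47 in control and 3.67 to 5.93 in WD. Of 18 granule genes with enough counts, 8 had every WD ratio above every control ratio, 1 below and 9 overlapped. Among 15 other receptor tyrosine phosphatases the mean ratio was higher in WD for each, and 6 did not overlap, beside 49.2% of all genes.

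Likeness to PTPRN was measured by Pearson's r of log2 CPM over the 10 libraries, as a description in which the points share depth and the step between groups. Among genes with a symbol, UNC13A was most like PTPRN (r = 0.98, the highest of all tested genes). High values were also found for TMED3, a cargo receptor of the early secretory pathway (r = 0.96), the transcriptional coregulator CITED1 (0.94) and PSEN2, a presenilin (0.94). Next came the lysosomal protease CTSZ at 0.93 and DNASE1L1, SPRED3, CHPF and RNF216 at 0.92. Of these genes, TMED3, CITED1 and RNF216 were called higher in WD by edgeR, at log2 fold changes of 1.04, 2.15 and 1.12. VGF, PDYN and PCSK1 had r of 0.91, 0.88 and 0.85.

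Taking away the group means changed the order. Again only genes with a symbol were ranked, and the 10 named here lay from 3rd (CAMSAP1) to 34th (ITGA10) of all tested genes. UNC13A stayed near the top at r = 0.95, next to CAMSAP1, which binds microtubule ends, at 0.95. Then came ARNT2, a transcription factor that MCNs need to develop, and RAB36 and the glutamate receptor subunit GRIN2B, each at 0.94. PRRC2B stood at 0.93, and ZFP64, WNK2, LMTK2 and ITGA10 at 0.92. Of these 10 only UNC13A had a log2 fold change above 0. Within groups PTPRN also moved with PTPRF (0.89), PCSK1N (0.82), SYT7 (0.81) and PTPRT (0.81), genes with log2 fold changes below 0, and with CHGB (0.76) and VGF (0.68), whose log2 fold changes were above 0. The values for PDYN and PCSK1 were 0.46 and 0.32. WD6, with the highest PTPRN level and low depth, was also far from the other WD libraries for PCSK1N and SYT7. It stood at 297 CPM beside 91.6 to 137 for PCSK1N, and at 67.4 CPM beside 23.8 to 35.3 for SYT7. The part of this 1 library in the r values above was not tested. Over all tested genes, the share with a within-group r below 0 lay between 48.0% and 54.2%. Beside this share, r was below 0 for 11 of the 17 other phosphatases, down to -0.73 for PTPRZ1, and for 3 of the 19 granule genes. Among cell type markers r was below 0 for all 8 of microglia (-0.79 to -0.22) and for 5 of 6 of vessels, with -0.85 for KDR. The 2 precursor markers gave -0.85 (PDGFRA) and 0.23 (CSPG4), and the 2 astrocyte markers -0.79 (GJA1) and 0.53 (ALDH1L1). The neuronal markers ran from -0.59 for GAD1 to 0.77 for NEFL.

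Markers of other cell types were examined beside PTPRN. Of 9 microglial markers, 8 were paired and tested. All 8 had log2 fold changes above 0, with an unadjusted p under 0.05 in edgeR, against 9.31% of all tested genes. The edgeR fit called C1QA alone (1.63, adjusted p = 0.0232), against 0.27% of all tested genes called higher, and DESeq2 called C1QA and C1QB (adjusted p = 0.00532). C1QA was not called without CON3, CON5, CON13 or WD8 (adjusted p up to 0.133), nor without both CON13 and WD6 (0.0625). Of the 8, 5 (AIF1, CX3CR1, C1QA, C1QB and P2RY12) carry a name only through the copy ordered by p, which favours genes with small p. The 3 others (CSF1R, ITGAM and PTPRC) also had an unadjusted p under 0.05, and none of them was called. The summed level of the 8 markers was 307 to 500 CPM in control and 410 to 1405 CPM in WD. The order of the WD libraries was not that of PTPRN: WD15, with the highest sum, had the second lowest PTPRN level, and WD6, with the highest PTPRN level, had a sum of 673 CPM. All 5 tested neuronal markers (NEFL, GAD1, GAD2, OTP and SIM1) had log2 fold changes below 0 with none called (2 with an unadjusted p under 0.05, none called by DESeq2), although GAD2 and SIM1 turned above 0 when some single libraries were left out. Their sum was 291 to 423 CPM in control and 171 to 351 CPM in WD. None of the 2 astrocyte, 3 oligodendrocyte, 2 precursor and 6 vascular markers tested was called by edgeR or DESeq2, with 2, 0, 1 and 2 at an unadjusted p under 0.05. Both astrocyte genes, the precursor gene CSPG4 and the neuronal NEFL carry a name only through the copy ordered by p. The part of cell composition in the PTPRN result was not tested, and in these bulk samples more cells of a type and more RNA per cell cannot be told apart. The defining MCN genes AVP and OXT were paired with no ID and not analysed here, so the tissue label was checked only through OTP and SIM1, factors of the MCN lineage with at least 41 and 58 counts in every library.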

How the data were processed

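RNA from unilateral rostral SON samples was depleted of ribosomal RNA and sequenced from a stranded library kit. Per the methods of the study, BBDuk removed adaptors, STAR placed the reads on the genome assembly Camdro2, and FeatureCounts assigned read pairs to genes. They deposited whole-number counts for 22444 Ensembl IDs in 10 libraries, 1 camel each, without normalization, and these counts were used for all results. The authors also deposited normalized values, a signal per gene equal to the count divided by a DESeq2 size factor of the library (largest relative departure 5.4e-10). The annotation release and the strand setting of counting are not given in the sources used here, so reads of overlapping genes could not be told apart.

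Symbols came from the study's supplementary tables, which pair 4351 IDs with a name, 1156 of them only through the copy ordered by p. No annotation of Camdro2 was used, so positions and lengths are not given. The members and gene lists were chosen with earlier results of these data known.

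WD and control were compared with edgeR 4.0.16 (TMM, filterByExpr, robust quasi-likelihood F test, Benjamini-Hochberg adjustment over 14432 genes, threshold 0.05) in R 4.3.3. The SE is the log2 fold change divided by the square root of F. DESeq2 1.42.0 (Wald test) was an alternative, as were other scalings, filters and covariates and the removal of each library in turn. Log2 CPM for likeness used a prior count of 2. Ratios used genes with at least 10 counts in every library and exact permutation tests over all assignments of libraries (scipy 1.17.1). The edgeR script was tested on simulated data with 200 changed genes. Named genes were PTPRN, the receptor tyrosine phosphatases of the study's tables, the granule list, genes known to act with PTPRN and the 10 most like it by each measure, of which 1 is not reported here. SNTB2 and PIAS4, which also bind or follow PTPRN, were paired with no ID.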

Additional observations from a re-analysis of the deposited data

Results flagged for a closer look

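Of 102 groups of 5 libraries checked for 1 library far from the other 4 (Dixon's test), 9 were flagged, where chance flags about 1 in 20. The ratio of PTPRN to CHGA was 11.7 in WD8 beside 20.3 to 23.2 in the other WD libraries. The ratio of PTPRN to CPE was 8.80 in WD6 beside 2.08 to 3.71 in the others. WD6 was also far from its group for PCSK1N, at 297 CPM beside 91.6 to 137, for SYT7, at 67.4 CPM beside 23.8 to 35.3, and for PTPRG, at 82.6 CPM beside 131 to 150. PTPRC stood at 75.4 CPM in WD15 beside 30.1 to 42.2, and PTPRQ at 20.3 CPM in CON13 beside 2.52 to 7.17. In CON2 the summed microglial markers were 499.7 CPM beside 307 to 346 in the other controls, and the summed oligodendrocyte markers 117 CPM beside 50.6 to 65.8. The level of PTPRN itself was flagged in neither group.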

How the results depend on the processing

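The log2 fold change of PTPRN was above 0 in all 21 alternatives, from 1.11 to 1.48 when 1 library was left out. With scaling to library totals only, PTPRN lost its call (1.43, adjusted p = 0.450), the median of all genes shifted to 0.16 and 10 genes were called, 7 of them higher, beside 39 of 72 in the reported fit. That setting called 3 of the granule genes beside 8. Over all genes DESeq2's Wald test called 209, depth group as a covariate 224, and leaving out 1 library 40 to 102. For the other receptor tyrosine phosphatases the count went from 0 to 1 under DESeq2 (PTPRT) and to 2 with depth group as a covariate (PTPRT and PTPRC), and stayed at 0 without any single library, where granule genes called numbered 6 to 9. The log2 ratio difference without 1 library was 1.09 to 1.36 for CHGA, 1.15 to 1.36 for CHGB and 0.64 to 1.16 for CPE, with p up to 0.0159, 0.0159 and 0.0952. The cause of these changes was not tested.

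Values close to 0 changed sign. Depth group as a covariate gave PTPRD -0.0087 and STAT5A 0.041, and RIN (RNA integrity number) as a covariate gave PTPRD -0.023 and STAT5B 0.013. Library totals only gave STAT5A 0.089, STAT5B 0.12, CAPN2 0.0026, GAD1 0.043, GAD2 0.18 and SIM1 0.16, RIN gave SIM1 0.17, and no filter gave STAT5B 0.0040. Leaving out both CON13 and WD6, chosen after seeing the data, gave PTPRD -0.068, GAD2 0.049, CHGA -0.14, CHGB -0.060 and CAPN1 -0.029. Leaving out 1 library gave PTPRD -0.090 to 0.11, CHGA -0.086 to 0.22, CHGB -0.030 to 0.23, PCSK1N -0.49 to 0.011, STAT5A -0.087 to 0.071, STAT5B -0.093 to 0.015, CAPN1 -0.0072 to 0.094, GAD2 -0.20 to 0.12 and SIM1 -0.21 to 0.13.

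No paired analysis was possible because control and WD libraries share no replicate number. The number of camels per group limits how small a difference is detectable here, and the part of the low depth of CON13 and WD6 in this was not tested.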
